A study of Arabidopsis thaliana with 6 samples.

Results

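Cysteine-rich receptor-like kinases (CRKs) are a family of plant membrane proteins, and 42 Arabidopsis thaliana loci annotated as CRK1 to CRK34, CRK36 to CRK42 and CRK45 (also named ARCK1) were examined here, out of 33602 genes in the count table. The members were listed by locus identifier and not by a cut on measured values. Earlier results of these data were known when the family was chosen. Of the 42 loci, 20 form 1 array on chromosome 4 (AT4G23130 to AT4G23320), 5 lie at AT4G11460 to AT4G11530, 5 at AT4G04490 to AT4G04570, 2 at AT4G21400 and AT4G21410, 2 at AT1G70520 and AT1G70530, and 8 are single loci. A mean of at least 10 counts in prp40c-1 or wild type (wt) plants was required for a test, and 35 members passed it.

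The tested plants were whole seedlings of prp40c-1, a line homozygous for a T-DNA insertion in PRP40C (AT3G19840), a member of the PRP40 family, whose proteins link RNA polymerase II and the splicing machinery. They were set against wt seedlings of the same accession, Col-0, with 3 libraries of poly(A) RNA in each genotype. Seeds were stratified for 4 days at 4°C, and the seedlings grew on agarose medium at 22°C under continuous white light of 50 μmol per square metre and second, with no treatment. The sample descriptions give an age of 2 weeks and the growth protocol a harvest after 10 to 14 days. The mutant is represented by 1 insertion allele, and no complemented line was sequenced here. The samples are named biological replicates, and the sources used here do not say how many seedlings made up each.

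A typical CRK carries, outside the cell, a pair of domains with a conserved spacing of cysteines (the DUF26 or Gnk2-like fold), followed by a membrane span and a serine/threonine kinase domain inside the cell. The family is known for transcripts that accumulate after pathogen attack, salicylic acid, ozone or drought, and several members act with pattern recognition receptors and with the NADPH oxidase RBOHD in the production of extracellular reactive oxygen. WRKY transcription factors, many of which are induced in the same responses, bind a short element called the W-box in the promoters of defence genes, CRK genes among them.

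Gene counts per library ran from 34200225 to 40919516, of which 6.90 to 7.52% fell on the 10 genes with most counts. The targeted PRP40C was counted 451, 513 and 429 times in prp40c-1, against 947, 1068 and 917 times in wt, which is a log2 fold change of -0.97 (SE, the standard error, 0.11; adjusted p = 2.1e-05, edgeR). Over all genes, 624 of 22182 were called higher in prp40c-1 (2.81%) and 189 lower (0.852%), where a call needs an adjusted p below 0.05 together with a log2 fold change beyond 0.58 in either direction. The median log2 fold change over all genes tested was 0.00 to 2 decimals. Markers of both shoot and root were present. The summed level of 5 leaf markers, in CPM (counts scaled to a common library size), ran from 44900 to 49100 in prp40c-1 and from 44800 to 47000 in wt. For 7 root markers it was 149 to 165 CPM in prp40c-1 and 137 to 173 CPM in wt, and no leaf or root marker was called. The leaf sum joins shifts in both directions. All prp40c-1 libraries lay below wt for RCA (log2 fold change -0.25, adjusted p = 0.0334, edgeR) and RBCS1A (-0.16, adjusted p = 0.0957, edgeR). For CAB1 they all lay above wt (0.17, adjusted p = 0.142, edgeR). Floral markers summed to 0.446 to 1.36 CPM in prp40c-1 and 0.346 to 0.841 CPM in wt, and seed markers to 0.385 to 0.409 CPM in prp40c-1 and 0.499 to 0.938 CPM in wt, with 2 of 5 seed markers at 0 in every library. Of 4 senescence markers 3 were tested and none was called, and SAG12 was at 0 in all 6 libraries. The smallest p was that of NAC092, with 7.29, 8.26 and 6.07 CPM in prp40c-1, against 4.57, 6.23 and 4.42 CPM in wt. Its log2 fold change was 0.51 (SE 0.17, adjusted p = 0.0734, edgeR). Without wt replicate 2, 1 senescence marker was called.

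All CRK genes that were called were overexpressed in prp40c-1. Of the 35 members tested, 8 were called higher in prp40c-1, where 2.81% of all genes were, and 0 were called lower, where 0.852% were. They were CRK5, CRK6, CRK10, CRK11, CRK13, CRK14 and CRK15, which all belong to the AT4G23 array, and CRK45, a single locus. The log2 fold change was above 0 in 25 of the 35 members and ran from -0.87 to 1.62, with a median of 0.23. In 19 members all 3 prp40c-1 libraries lay above all 3 wt libraries (15.5% of all genes tested did so), and in 1 member, CRK34, they lay below (13.6% of all genes). Summed over the 42 members, expression was 559, 596 and 641 CPM in prp40c-1, against 421, 448 and 450 CPM in wt. The prp40c-1 libraries were thus all above the wt libraries in family total. In bulk seedlings, more cells that express a gene and more RNA of it per cell cannot be told apart.

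**Figure D1:**
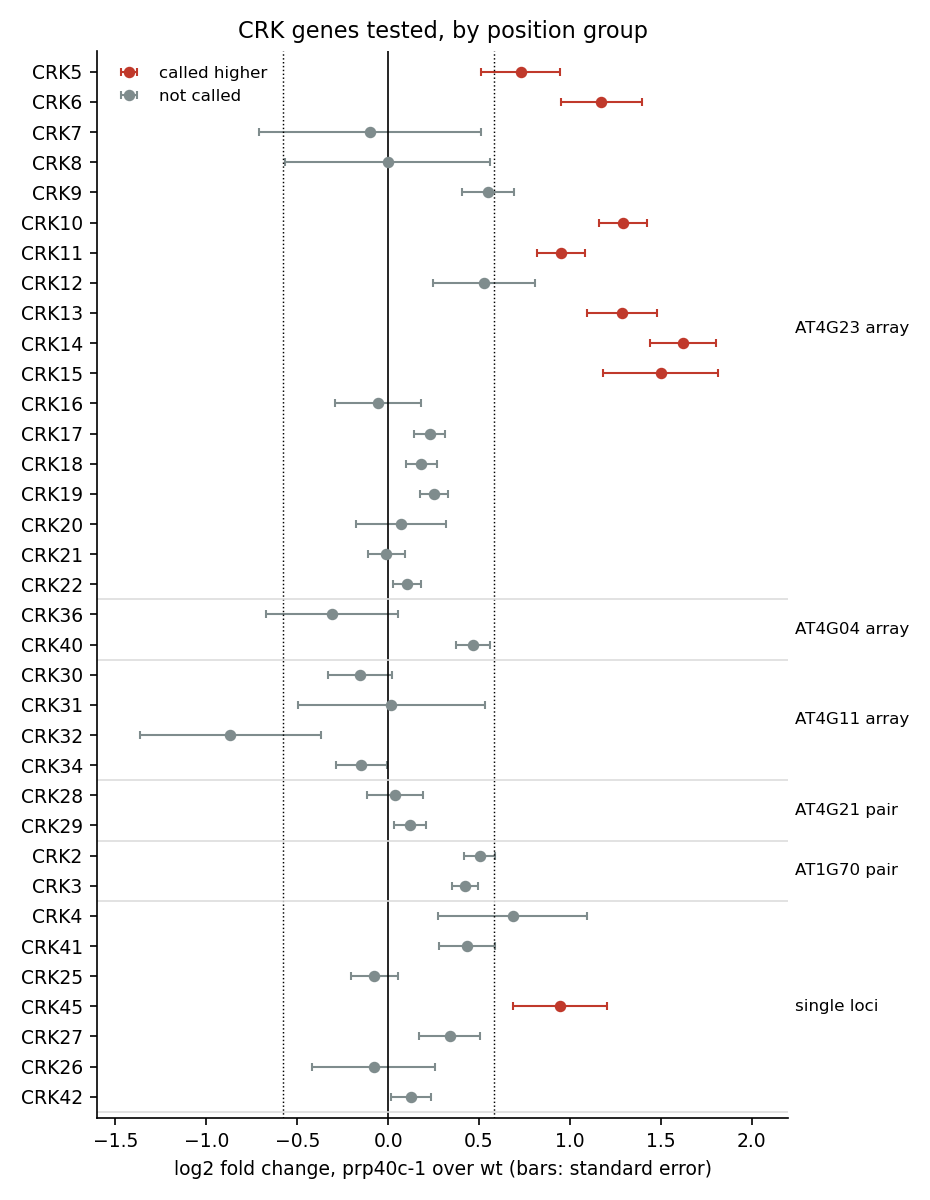
Log2 fold change of prp40c-1 over wt (x axis) for the 35 CRK genes tested (y axis, ordered by position group), with bars for the standard error, a solid line at 0 and dotted lines at the call threshold of 0.58. The 8 called members, in red, lie between 0.73 and 1.62, and 7 of them stand in the upper stretch of the AT4G23 array.

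CRK14 (AT4G23220, chromosome 4, 12153956 to 12157091) showed the largest log2 fold change of the family. It had 6.66, 9.68 and 10.1 CPM in the prp40c-1 libraries, against 2.99, 2.79 and 2.79 CPM in the wt libraries. The lowest prp40c-1 library was more than 2 times the highest wt library, and the wt values were nearly identical. The log2 fold change was 1.62 (SE 0.18, adjusted p = 2.18e-05, edgeR), a fold of 3.08. Its neighbour CRK15 (AT4G23230, 12157569 to 12160270) was expressed at a far lower level, at 1.68, 2.26 and 2.01 CPM in prp40c-1, against 0.598, 0.71 and 0.79 CPM in wt. The groups did not overlap, and the log2 fold change of CRK15 was 1.50 (SE 0.31, adjusted p = 0.00567, edgeR).

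CRK10 (AT4G23180, 12138137 to 12140921), first cloned as RLK4 and known as a transcript induced by pathogens and salicylic acid, was among the most expressed members in both genotypes. It had 68.8, 90.4 and 113 CPM in the prp40c-1 libraries, against 35.0, 41.1 and 35.4 CPM in the wt libraries. The wt libraries stayed close to each other, while the prp40c-1 libraries spread widely and all lay above them. The log2 fold change was 1.29 (SE 0.13, adjusted p = 1.05e-05, edgeR). CRK11 (AT4G23190, 12141032 to 12143833), first cloned as RLK3 and also pathogen-induced, lies next to it. Its level was 26.5, 27.9 and 37.6 CPM in prp40c-1, against 15.8, 18.01 and 13.7 CPM in wt. The log2 fold change of CRK11 was 0.95 (SE 0.13, adjusted p = 0.000167, edgeR), with no overlap between the genotypes.

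CRK13 (AT4G23210, 12148714 to 12151479), whose overexpression is known to raise salicylic acid and resistance to bacteria, had 7.61, 8.59 and 9.24 CPM in prp40c-1, against 3.72, 4.34 and 2.40 CPM in wt. Every prp40c-1 library was above every wt library. The log2 fold change was 1.29 (SE 0.19, adjusted p = 0.000387, edgeR). CRK6 (AT4G23140, 12121383 to 12124205), known with CRK7 for a part in the response to extracellular reactive oxygen, had 3.73, 5.61 and 5.27 CPM in prp40c-1, against 1.87, 2.68 and 1.93 CPM in wt. Its log2 fold change was 1.17 (SE 0.22, adjusted p = 0.00281, edgeR). The partner CRK7 was near the limit of detection, at 0.21, 0.436 and 0.207 CPM in prp40c-1, against 0.312, 0.131 and 0.469 CPM in wt, and its genotypes overlapped.

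CRK5 (AT4G23130, 12117541 to 12120134), whose induced expression is known to trigger cell death, and CRK45 (AT4G11890, 7147865 to 7149921), known from abscisic acid responses in germinating seeds, were the called members with the weakest tests. The gene model of CRK45 encodes 354 residues and holds 0 copies of the conserved cysteine spacing, so CRK45 is not a typical member. CRK5 had 4.80, 4.39 and 5.51 CPM in prp40c-1, against 2.00, 3.50 and 3.36 CPM in wt, a log2 fold change of 0.73 (SE 0.22, adjusted p = 0.0413, edgeR). CRK45 had 3.15, 5.56 and 4.38 CPM in prp40c-1, against 1.92, 3.08 and 1.80 CPM in wt, a log2 fold change of 0.95 (SE 0.26, adjusted p = 0.0268, edgeR). In CRK45 the lowest prp40c-1 library was barely above the highest wt library. Each of the other 6 called members stayed called with any 1 library left out. CRK5 lost its call without prp40c-1 replicate 1 (adjusted p = 0.0708, edgeR), prp40c-1 replicate 2 (0.0774), prp40c-1 replicate 3 (0.179) or wt replicate 1 (0.15). CRK45 lost it without prp40c-1 replicate 2 (0.161), prp40c-1 replicate 3 (0.0879), wt replicate 1 (0.0993) or wt replicate 3 (0.0767). Among the mutant libraries, replicate 1 was the lowest in 7 of the 8 called members and replicate 3 the highest in 5.

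**Figure D2:**
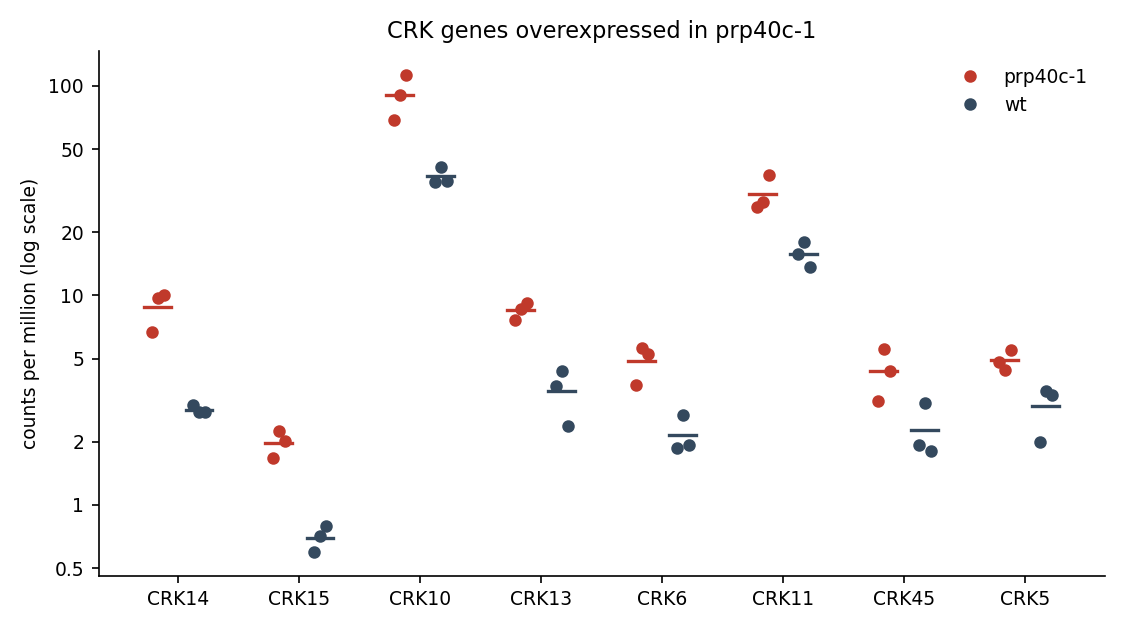
CPM (y axis, log scale) of the 8 CRK genes called higher, with 1 point for each library and a bar at the mean, prp40c-1 in red and wt in blue-grey (n = 3 each). In every one of the 8 genes the prp40c-1 points lie above the wt points, from CRK14 at 6.66 to 10.1 against 2.79 to 2.99 CPM to CRK5 at 4.39 to 5.51 against 2.00 to 3.50 CPM.

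The overexpressed members in the array included CRK14, CRK15 and CRK6, the 3 called genes with the largest log2 fold changes among those that hold a W-box in their promoter, and these promoters are shown here for that reason. Each is the 300 bases before the gene start of RefSeq (TAIR10.1, whose nuclear coordinates are those of TAIR10), 5′ to 3′ on the strand of the gene, in lower case with the W-box letters (TTGACC or TTGACT, on either strand, so that AGTCAA and GGTCAA count as well) in capitals. They are chr4:12156882-12157181 (minus strand) for CRK14, chr4:12160280-12160579 (minus strand) for CRK15 and chr4:12121069-12121368 (plus strand) for CRK6.
CRK14: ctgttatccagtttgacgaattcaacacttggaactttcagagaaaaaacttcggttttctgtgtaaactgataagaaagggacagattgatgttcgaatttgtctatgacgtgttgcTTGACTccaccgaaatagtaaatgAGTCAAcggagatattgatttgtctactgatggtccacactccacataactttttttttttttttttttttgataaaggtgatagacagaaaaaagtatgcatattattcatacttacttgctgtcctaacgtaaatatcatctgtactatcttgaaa
CRK15: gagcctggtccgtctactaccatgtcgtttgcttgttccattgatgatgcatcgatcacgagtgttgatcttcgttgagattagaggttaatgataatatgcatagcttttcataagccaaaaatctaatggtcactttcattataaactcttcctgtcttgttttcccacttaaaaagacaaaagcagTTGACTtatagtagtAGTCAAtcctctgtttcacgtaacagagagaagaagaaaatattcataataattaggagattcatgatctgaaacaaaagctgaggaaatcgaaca
CRK6: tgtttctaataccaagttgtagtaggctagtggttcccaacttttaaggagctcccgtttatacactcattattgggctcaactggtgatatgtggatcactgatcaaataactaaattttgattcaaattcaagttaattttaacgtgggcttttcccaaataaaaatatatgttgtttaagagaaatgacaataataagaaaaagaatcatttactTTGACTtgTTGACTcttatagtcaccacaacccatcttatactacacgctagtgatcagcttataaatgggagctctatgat
Each of the 3 windows holds 2 W-boxes. The window of CRK14 overlaps the span that the count table gives that gene, and the window of CRK15 reaches into CRK16.

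A W-box was found in 26 of the 42 CRK promoters (61.9%), where 8855 of 27443 promoters of protein-coding genes of the same length (32.3%) held one. CRK5 and CRK11 had 4 W-boxes each. CRK10, CRK13 and CRK45, also called higher, had none in this window. By call, 5 of the 8 called members (62.5%) and 16 of the 27 tested members that were not called (59.3%) held a W-box, so the share was close in both. At least 2 W-boxes were found in 5 of the 8 called members and in 7 of the 27 tested and not called. The share of all promoters with at least 2 was not counted. The element TGACG (on either strand), the core bound by TGA factors, was in 15 of 42 CRK promoters (35.7%) and in 21.3% of all promoters. These matches describe the letters of a short window, and binding was not measured.

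The 7 called members of the AT4G23 array lay between CRK5 and CRK15. The array spans 74.44 kb (chromosome 4, 12117541 to 12191977) and holds 23 genes, 20 of them CRK genes. The 11 members from CRK5 to CRK15 (42.7 kb) were all tested, 7 were called higher and the median log2 fold change was 0.95. Of the 9 members from CRK16 to CRK24 (31.5 kb), 7 were tested, 0 were called and the log2 fold change ran from -0.06 to 0.25, with a median of 0.10. The boundary between the 2 stretches was set after the values were seen, so no test was made of it. Within the CRK5 to CRK15 stretch the calls were not continuous. CRK7 and CRK8 had log2 fold changes of -0.10 (SE 0.61) and 0.00 (SE 0.56), CRK9 had 0.55 (SE 0.14) and CRK12 had 0.53 (SE 0.28). CRK12 had 2.36, 4.12 and 5.86 CPM in prp40c-1, against 2.47, 3.65 and 2.42 CPM in wt, so its lowest mutant library lay below all wt libraries and its other 2 above them. Without prp40c-1 replicate 1, CRK12 was called (log2 fold change 0.81, adjusted p = 0.0469, edgeR).

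**Figure D3:**
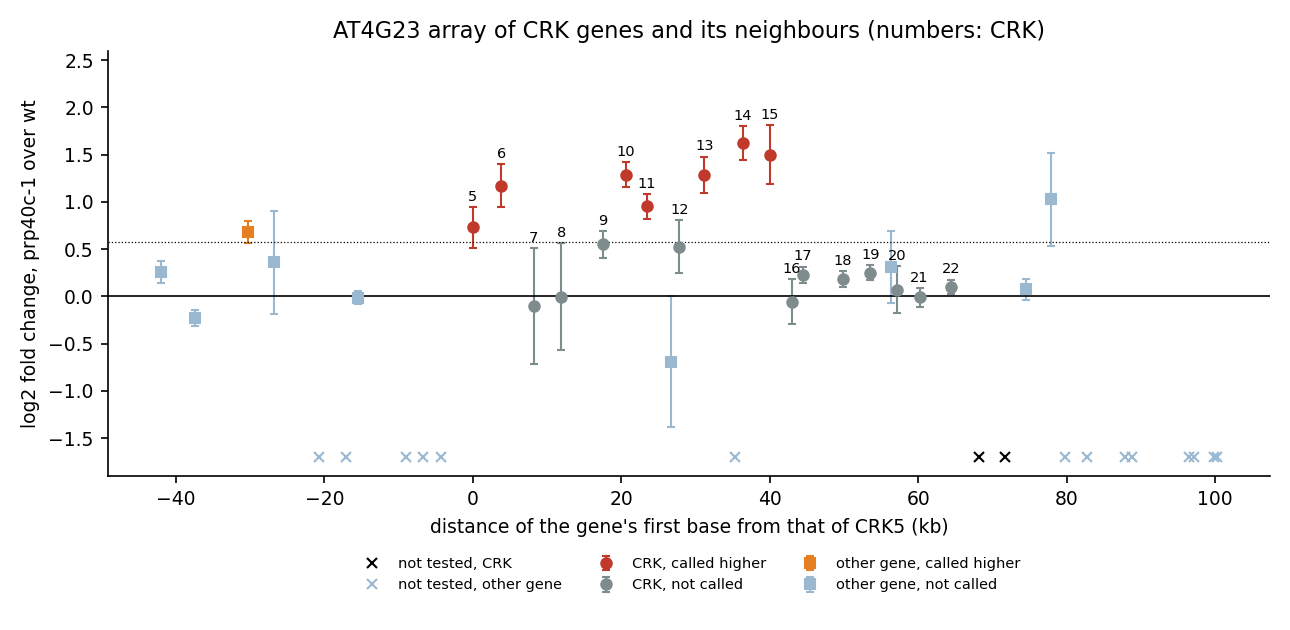
Log2 fold change of prp40c-1 over wt (y axis, bars for the standard error) against the distance of each gene's first base from that of CRK5 in kb (x axis), for the CRK genes of the AT4G23 array (circles, numbered) and the other genes inside it and on both sides (squares), with crosses for genes not tested. The 7 called CRK genes lie within the first 40.0 kb, and the CRK genes beyond it lie between -0.06 and 0.25.

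Most genes on both sides of the array had too few counts for a test. Over all genes tested, 2.81% were called higher. Of 3 genes inside the array that are not CRK genes, 2 were tested and 0 were called. Of the 10 genes before and the 10 after it, 7 were tested and 1, AT4G23060, was called higher, with a log2 fold change of 0.68 (SE 0.12, adjusted p = 0.00126, edgeR). The number of neighbours called was 0 without prp40c-1 replicate 3 and 2 without wt replicate 2. The 22 CRK genes outside the array had 17 tested members, a median log2 fold change of 0.12 and 1 call, CRK45.

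Levels per length were compared between members as CPM per kb of exon length, with SD over n = 3 libraries. CRK10 had the highest mean level in prp40c-1 (41.6 ± 10.2 CPM per kb) and was the fourth in wt (17.0 ± 1.57 CPM per kb). CRK40 was second in prp40c-1 (33.4 ± 1.78) and first in wt (24.2 ± 3.67). In prp40c-1 the SDs of CRK10 and CRK40 overlapped, so their order was not resolved. CRK19, a member whose induced expression is known to cause cell death, had 25.8 ± 1.82 CPM per kb in prp40c-1 and 21.6 ± 1.13 in wt. CRK3 had 24.0 ± 0.607 CPM per kb in prp40c-1 and 17.9 ± 0.77 in wt, and CRK22 had 16.7 ± 0.787 in prp40c-1 and 15.6 ± 0.103 in wt. CRK19 and CRK3 lay within their SDs of each other in prp40c-1, as did CRK3 and CRK10 in wt and CRK19 and CRK40 in wt. At least 10 CPM per kb was reached by 11 members in prp40c-1 and by 8 in wt, and at least 1 CPM per kb by 27 members in prp40c-1 and by 26 in wt. CRK10 made up 12.3, 15.2 and 17.7% of the summed CPM of the family in prp40c-1, against 8.3, 9.18 and 7.85% in wt.

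**Figure D4:**
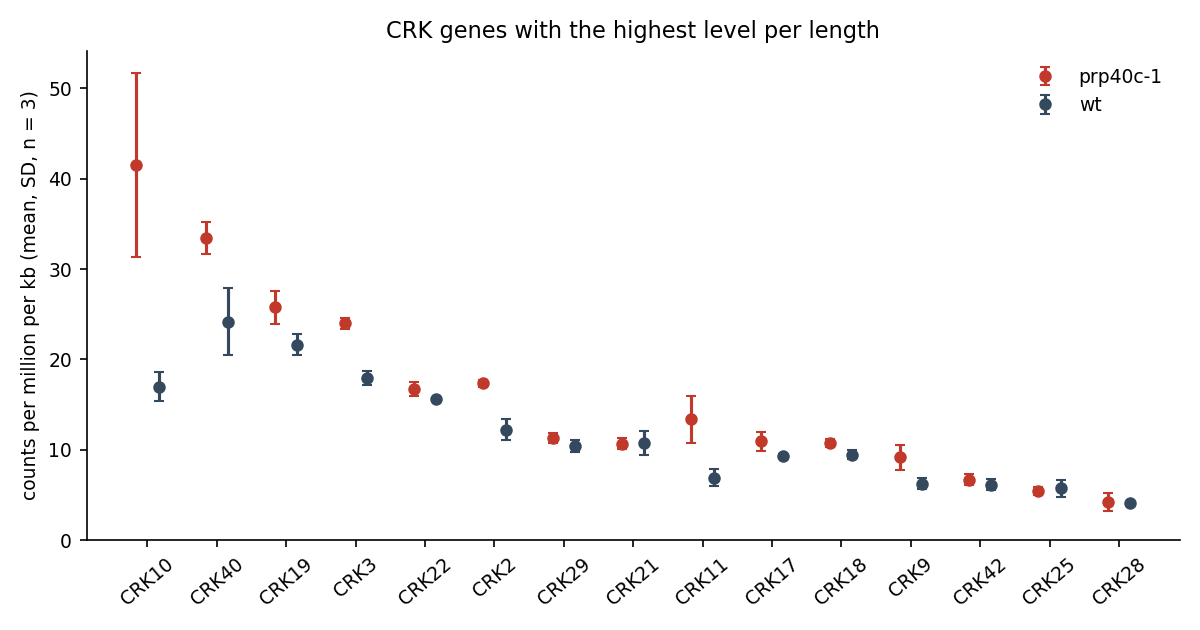
Expression in CPM per kb of exon length (y axis, mean and SD, n = 3 libraries) of the CRK genes with the highest level over all libraries, from CRK10 to CRK28 (x axis), with prp40c-1 in red left of wt in blue-grey. CRK10 stands at 41.6 in prp40c-1 and 17.0 in wt, while CRK21, CRK25 and CRK28 differ little between genotypes.

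A further 5 members passed the adjusted p of 0.05 with log2 fold changes below the threshold of 0.58, and all were higher in prp40c-1. CRK2 (AT1G70520), known to phosphorylate RBOHD, had 38.7, 37.0 and 38.5 CPM in prp40c-1, against 24.3, 27.0 and 29.3 CPM in wt, a log2 fold change of 0.50 (SE 0.08, adjusted p = 0.00101, edgeR). Its neighbour CRK3 (AT1G70530) had 47.1, 47.4 and 45.3 CPM in prp40c-1, against 33.2, 35.1 and 36.1 CPM in wt, a log2 fold change of 0.42 (SE 0.07, adjusted p = 0.00121, edgeR). The mutant libraries of both genes were tightly grouped and all above wt. CRK40 (AT4G04570) had 77.4, 70.9 and 78.4 CPM in prp40c-1, against 46.9, 53.8 and 63.4 CPM in wt, a log2 fold change of 0.47 (SE 0.09, adjusted p = 0.00378, edgeR), and it was called without wt replicate 3 (log2 fold change 0.59). CRK9 (AT4G23170), whose gene model encodes 265 residues with the cysteine motif and without the HRD and DFG letters of a kinase, had 8.24, 9.89 and 11.1 CPM in prp40c-1, against 6.96, 7.04 and 5.95 CPM in wt. Its log2 fold change of 0.55 (adjusted p = 0.0217, edgeR) was just outside the fold-change threshold, while the called member nearest to it on the inside was CRK5 at 0.73. CRK9 was called without prp40c-1 replicate 1 (0.66), wt replicate 1 (0.58) or wt replicate 2 (0.59), and its adjusted p (edgeR) was above 0.05 without prp40c-1 replicate 2 (0.0838), prp40c-1 replicate 3 (0.135) or wt replicate 3 (0.0608). CRK19 (AT4G23270) had 50.1, 54.3 and 57.7 CPM in prp40c-1, against 45.0, 48.0 and 43.3 CPM in wt, a log2 fold change of 0.25 (adjusted p = 0.0432, edgeR). Its adjusted p (edgeR) was above 0.05 without prp40c-1 replicate 2 (0.142), prp40c-1 replicate 3 (0.216), wt replicate 1 (0.118) or wt replicate 3 (0.0997). With no fold-change threshold these 5 raise the count of members called higher to 13.

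CRK22 (AT4G23300), the remaining member among the most expressed, had 38.7, 35.3 and 37.8 CPM in prp40c-1, against 34.5, 34.7 and 35.0 CPM in wt, a log2 fold change of 0.10 (adjusted p = 0.434, edgeR). The other tested members did not pass the adjusted p, and with CRK22 they number 22, with log2 fold changes between -0.87 and 0.68. At the ends of that range were members with few reads. CRK32 had 0.446, 0.3 and 0.237 CPM in prp40c-1, against 0.702, 0.368 and 0.741 CPM in wt (log2 fold change -0.87, SE 0.50). CRK4, whose induced expression is also known to cause cell death, had 1.07, 0.654 and 0.948 CPM in prp40c-1, against 0.468, 0.552 and 0.642 CPM in wt (log2 fold change 0.68, SE 0.41, adjusted p = 0.334, edgeR). Differences of this size were not detectable at such depth. CRK28, a partner of the receptor FLS2 and its co-receptor BAK1, had a log2 fold change of 0.04 (SE 0.15), and CRK36, a partner of the kinase BIK1, had -0.31 (SE 0.36). The 7 members not tested were CRK1, CRK23, CRK24, CRK33, CRK37, CRK38 and CRK39, with at most 12 counts in any library. CRK1 and CRK33 had no count in any of the 6 libraries. CRK24 had 8, 4 and 1 counts in prp40c-1 and none in wt.

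Reads spliced across annotated introns gave another reading of the same libraries. CRK14 had 137, 156 and 157 spliced reads in prp40c-1, against 44, 48 and 67 in wt, a ratio of 3.08 in CPM. CRK10 had 1100, 1275 and 1442 spliced reads in prp40c-1, against 550, 665 and 629 in wt, a ratio of 2.25. The ratio was 2.49 for CRK13, 2.14 for CRK5, 1.97 for CRK11, 1.76 for CRK45 and 1.67 for CRK6, and the genotypes overlapped in CRK45 alone among these 7. No intron of CRK15 entered this comparison. Spliced reads come from the same alignments as the gene counts. They therefore do not check how reads were assigned between members that share sequence. Of the 50-base words in the exons of CRK6, 22.1% occur more than once in the genome, as do 15.4% of those of CRK13, 0.403% of those of CRK10, 0.336% of those of CRK11 and none of those of CRK5, CRK14, CRK15 and CRK45. The counts of CRK6 and CRK13 are therefore uncertain where the counting could split reads between copies. The closest proteins were CRK19 and CRK20, with 84.5% identical residues over the shorter protein, CRK8 and CRK9 (82.6%), CRK31 and CRK32 (81.7%) and CRK28 and CRK29 (81.1%). None of these pairs holds a called member, and CRK6 and CRK13 were not summed with any other locus. With the counts of the pairs summed, 0 of the 4 pairs was called.

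No intron of a CRK gene was called in the splicing test. Of 124 CRK introns with junction counts, 31 introns in 14 genes had enough reads, and 0 passed (0% of 13735 introns tested over all genes did), with reads across both exon-intron boundaries set against spliced reads and a call at an adjusted p below 0.15. At an unadjusted p below 0.05 (edgeR) there were 3 of the 31 CRK introns, and 1455 of the 13735 introns over all genes. With DESeq2, 108 of the 13735 introns were called over all genes and 0 of the 31 in CRK genes. An unadjusted p below 0.05 (DESeq2) was reached by 4 of the 31 and by 1340 of the 13735. Of the 31 introns, 19 had enough boundary reads in prp40c-1 alone, 1 in wt alone and 11 in both, so the filter favours introns with more boundary reads in prp40c-1 and no direction was read over the 31. The smallest p was that of the first listed intron of CRK41 (chromosome 4, 419260 to 419375), with 12, 4 and 4 boundary reads in prp40c-1 and none in wt, beside 19, 19 and 22 spliced reads in prp40c-1 and 29, 15 and 17 in wt (adjusted p = 0.347, edgeR). An intron of CRK11 (12142785 to 12142866) had 10, 3 and 3 boundary reads beside 12, 29 and 33 spliced reads in prp40c-1, and no boundary read beside 14, 15 and 32 spliced reads in wt (adjusted p = 0.398, edgeR). An intron of CRK25 (2680678 to 2680756) had 6, 0 and 11 boundary reads in prp40c-1 and 0, 1 and 0 in wt (adjusted p = 0.418, edgeR). The named introns of CRK41, CRK11 and CRK25 all had enough boundary reads in prp40c-1 alone. No direction was therefore read from them either. The SE of the log2 change over the 31 introns ran from 0.58 to 2.34, so modest differences in CRK splicing were not detectable at this depth.

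Genes listed as signalling partners of CRKs, and WRKY regulators, were read from the same fit. Whether they act with CRKs or bind CRK promoters in these seedlings was not tested. Among 12 signalling partners, all tested, 3 were called higher and 0 lower, with a median log2 fold change of 0.28. Over all genes tested, 2.81% were called higher and 0.852% lower. SOBIR1, a receptor-like kinase that supports receptor-like proteins, had 94.5, 97.8 and 114 CPM in prp40c-1, against 46.9, 54.1 and 46.6 CPM in wt (log2 fold change 1.05, SE 0.08). RBOHD, the oxidase named above, had 115, 130 and 138 CPM in prp40c-1, against 70.7, 95.0 and 76.5 CPM in wt (log2 fold change 0.66, SE 0.10). BIK1, a cytoplasmic kinase of pattern recognition complexes, had 33.6, 35.9 and 40.8 CPM in prp40c-1, against 24.4, 24.7 and 23.3 CPM in wt (log2 fold change 0.60, SE 0.09). Both genes stayed just under the fold threshold in some fits, RBOHD at 0.57 without wt replicate 1 and BIK1 at 0.52 without prp40c-1 replicate 3 and 0.58 without wt replicate 3. FLS2 (0.44, adjusted p = 0.134, edgeR) and BAK1 (0.04, adjusted p = 0.761, edgeR) were not called. BKK1 (0.33, adjusted p = 0.0320, edgeR) and PBL1 (0.23, adjusted p = 0.0434, edgeR) passed the adjusted p below the fold threshold. The log2 fold change was above 0 in 11 of the 12 listed partners.

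Of 14 WRKY regulators, 6 were called higher (2.81% of all genes tested were) and 0 lower (0.852% were). Their median log2 fold change was 0.28. The largest were WRKY40, with 39.6, 58.3 and 74.1 CPM in prp40c-1, against 4.70, 8.23 and 7.18 CPM in wt (log2 fold change 3.09, SE 0.21), and WRKY33, with 186, 254 and 297 CPM in prp40c-1, against 38.8, 54.0 and 41.7 CPM in wt (log2 fold change 2.45, SE 0.15). WRKY22 (1.93, SE 0.14) and WRKY18 (1.72, SE 0.14) followed. In WRKY40 and WRKY33, as in CRK10, prp40c-1 replicate 1 was the lowest mutant library and replicate 3 the highest. The order was not particular to WRKY genes, since SOBIR1, RBOHD and BIK1 showed it too. WRKY70, also called higher (1.42), had 39.1, 45.3 and 35.0 CPM in prp40c-1, with replicate 3 the lowest. Of 14 salicylic acid genes 12 were tested, and 2 were called higher, where 2.81% of all genes were. They were the transcriptional regulators CBP60g (1.58, SE 0.13) and SARD1 (0.95, SE 0.21). SARD1 lost its call without prp40c-1 replicate 2 (adjusted p = 0.0736, edgeR). PR1, the usual marker of salicylic acid signalling, had 0, 0.109 and 0 CPM in prp40c-1, against 0.052, 0 and 0.0988 CPM in wt, and was not tested. ICS1, the enzyme of salicylic acid synthesis, had a log2 fold change of 0.16 (adjusted p = 0.319, edgeR). EDS1 (0.41, adjusted p = 0.00612, edgeR), SAG101 (0.42, adjusted p = 0.0291, edgeR) and NPR1 (0.26, adjusted p = 0.0406, edgeR) passed the adjusted p below the fold threshold. The log2 fold change was above 0 in 9 of the 12 salicylic acid genes tested.

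The PDLP genes encode proteins with the same cysteine-rich domains and no kinase. Of 8 tested, 0 were called, where 2.81% of all genes were called higher and 0.852% lower. With 8 genes, 0 calls cannot be told apart from these shares. The smallest p was that of PDLP7 (log2 fold change 0.31, SE 0.14, adjusted p = 0.196, edgeR). Of 5 wall-associated kinase genes, 3 were tested and 1, WAK1, was called higher (log2 fold change 0.68, SE 0.16), beside 2.81% of all genes. The call of WAK1 was lost without prp40c-1 replicate 2 (adjusted p = 0.0809, edgeR).

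**Figure D5:**
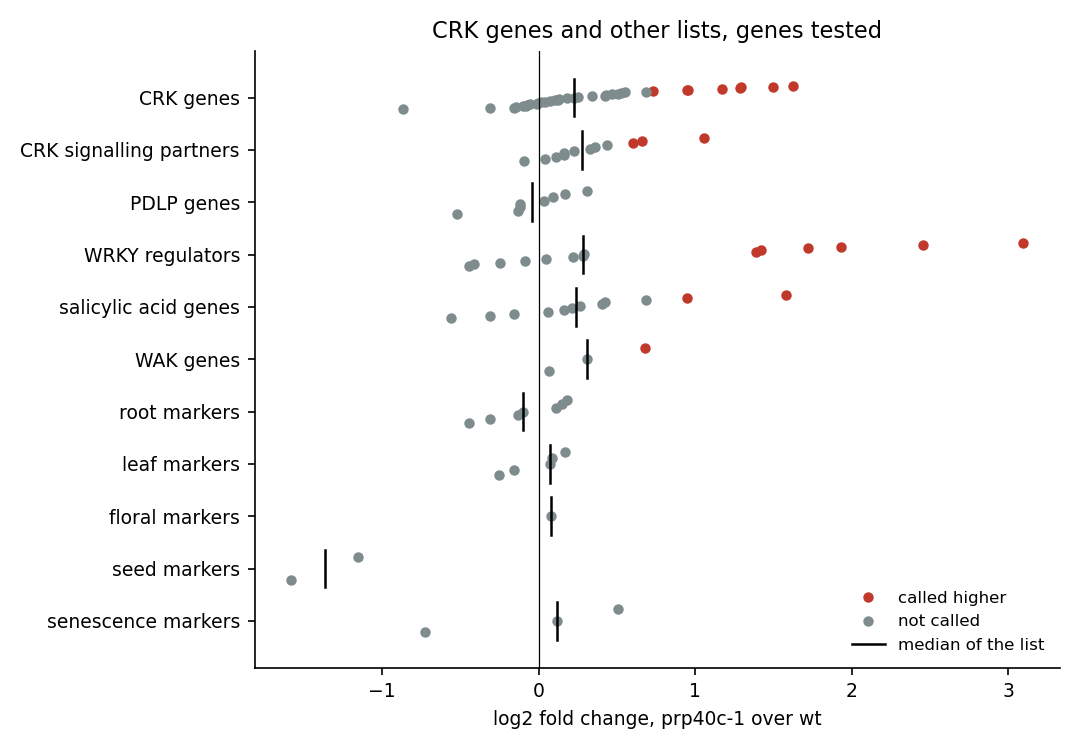
Log2 fold change of prp40c-1 over wt (x axis) of every tested gene in the CRK family and in the other lists (y axis), with called genes in red and a bar at the median of each list. Called genes reach 1.62 in the CRK family and 3.09 among the WRKY regulators, and none is called among the PDLP genes or the root, leaf, floral, seed and senescence markers.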

How the data were processed

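Per the labels and the methods of the study, poly(A) RNA was made into TruSeq libraries, and paired reads were mapped to TAIR10 with TopHat2 2.1.1 (SAMtools 1.3 is also named). The deposited values are raw counts per gene and per junction, made by the authors with custom R scripts and not normalized. The treatment of strand and of multiply mapping reads is not stated there, so counts of close paralogs are uncertain. The exon length of each gene was deposited in the same table.

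The main test was the edgeR 4.0.16 quasi-likelihood test on counts in R 4.3.3, with TMM library sizes, genotype as the only term, 22182 genes averaging 10 counts or more in either genotype, and Benjamini-Hochberg adjustment over all of them. Introns needed on average 5 or more spliced reads in both genotypes and 5 or more boundary reads in either. Their model had library effects and a read type term, the tested term let read type differ by genotype, and a call needed an adjusted p below 0.15 and a log2 change beyond 0.58. Entries for whole introns already listed in parts were left out, which kept 91086. Scripts were tested on simulated data. Alternatives were RLE size factors, DESeq2 1.42.0, no count filter, a replicate block, no fold-change threshold, paralogs summed and each library left out. Promoters, proteins and gene names came from RefSeq (TAIR10.1), where 98.9% of 93910 introns of the junction table read GT to AG. Protein identity came from global alignments with free ends (Biopython).

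The members, lists and tests were chosen with earlier results of these data known. Every called member, the 3 uncalled tested members with the smallest adjusted p and the 5 with the highest level per kb were given in every library. CRK4, CRK7, CRK9, CRK12, CRK24, CRK28, CRK32, CRK36 and the named introns were named besides, after their values were seen. So were FLS2, BAK1, BKK1, PBL1, WRKY70, ICS1, PR1, EDS1, SAG101, NPR1, SAG12, RBCS1A and CAB1. Libraries of 1 genotype differed by more than sampling noise (chi-square per degree of freedom 6.82 to 18.1), and p-values measure the spread between these 3 libraries per genotype.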

Additional observations from a re-analysis of the deposited data

How the results depend on the processing

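The count of 8 CRK genes called higher was the same with RLE size factors, with DESeq2, with no filter on low counts (40 members tested), and 0 members were called lower in every fit. It was 13 with no fold-change threshold, and it lay between 6 and 9 with any 1 library left out, with 6 without prp40c-1 replicate 2 or prp40c-1 replicate 3 (CRK5 and CRK45 lost). Summing paralogs could not change the 8 calls, since no summed pair holds a called member. The median log2 fold change of the tested members was 0.34 with paralogs summed, and 0.19 to 0.30 with single libraries left out, against 0.23. The number of array neighbours called was between 0 and 2 in those fits, against 1. Same-numbered libraries had correlations of their deviations between -0.0049 and 0.0497, so no effect shared by replicate number was seen. Whether the libraries were grown or handled in pairs cannot be told from these values. With the replicate block the adjusted p of CRK19 was 0.0511 (edgeR), the CRK count was still 8 and the count of called CRK introns still 0. No CRK intron was called with a minimum of 10 reads (137 introns called over all genes), with DESeq2 (108) or with column totals as library sizes (1). Members with few counts, such as CRK4, CRK7, CRK8, CRK31 and CRK32, have standard errors of 0.41 to 0.61 on the log2 scale, which limits what they can show.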
